A study of Mus musculus with 6 samples.

Results

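Autophagy machinery genes were 38 genes chosen by name as the core of macroautophagy, from the kinase complex that starts it to the receptors that carry cargo into it. The choice was made with earlier results of these data known, so shares of them are descriptions and not tests. Each gene was read from the probe set that names it alone and had the highest mean over the 6 arrays. Of the 38 genes, 37 had such a probe set, and all 37 lay high enough to be tested, among 12739 tested genes of 18193 measured in all. No probe set used here names Optn alone, and it was not analysed here. Calls below are from limma at a Benjamini-Hochberg adjusted p under 0.05 over all 12739 genes. Every difference is Gr1hi minus Gr1lo on the log2 scale of the deposited values.

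RNA came from sorted myeloid cells of the marrow of femurs and tibias. The mice carried an Hdc-GFP reporter on a C57BL/6 background, in which green fluorescent protein marks cells with activity of the histamine-making enzyme gene Hdc. All sorted cells were GFP-positive or GFP-high and carried CD11b, an integrin of myeloid cells, and the labels give no age and no treatment. The Gr1lo group (3 arrays) had low and the Gr1hi group (3 arrays) high staining for Gr1, an antigen of the Ly6 family. The question of the study's design is which transcripts differ between these groups. Whether replicates are separate animals is not stated. The p-values set each difference against the spread between these samples, which may be technical. In bulk RNA, fewer cells that express a gene and less of its RNA in each cell cannot be told apart.

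Autophagy is the route by which a cell wraps part of its own content in a double membrane and delivers it to the lysosome. The ULK kinase complex starts it, a class III phosphatidylinositol 3-kinase complex marks the membrane with PI3P, lipid carriers such as ATG2 and ATG9 let the membrane grow, and 2 ubiquitin-like conjugation reactions attach proteins of the ATG8 family (LC3 and GABARAP) to it. Cargo receptors bind both the cargo and ATG8 proteins. In granulocytes, autophagy genes are known for roles in the differentiation of neutrophil precursors and in their switch of energy metabolism.

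Hdc lay between 10.75 and 12.52 and Itgam, which encodes CD11b, between 11.16 and 12.25 on the 6 arrays. Female is the sex on every label. The Y-linked gene Eif2s3y nonetheless read 9.02 to 10.66 on all arrays, and Xist, the RNA of the inactive X, read 10.95 and 10.14 on the third Gr1lo and the third Gr1hi array but at most 2.43 on the other 4. The third arrays thus stand apart in this transcript. Some markers, such as Ccr2, Ly86 and Mcpt8, were also highest there within each group, and others, such as Elane and Mpo, lowest. Results are also given without the third arrays. The description of the third Gr1lo sample can be read as GFP-negative, while its title is that of the group. Markers of granulocyte progenitors fell in 7 of the 7 tested, with a summed signal (2 to the power of the log2 value, over 8 genes) of 42913 to 56727 in Gr1lo and 2077 to 3876 in Gr1hi. Mature neutrophil markers rose in 4 of 9 (123374 to 145144 and 168307 to 175329). Of 8 monocyte and macrophage markers 2 rose, Csf1r and Adgre1, and 1 fell, F13a1 (1018 to 2125 and 3904 to 4880). The 5 measured B cell markers summed to 65 to 75 and 60 to 82, with 3 higher and 1 lower. Of 5 measured T and NK cell markers 1 rose, Cd3d, from 4.32 to 8.49 (sums 32 to 53 and 356 to 429). Cd3e, Cd3g and Ncr1 were no higher on any array than the controls of absent transcripts. Of 5 erythroid markers 2 fell, Tfrc from 10.85 to 7.32 and Hemgn from 4.60 to 2.64 (sums 1541 to 2475 and 142 to 237). Klf1 and Alas2 were at the absent level. Of 5 basophil and mast cell markers 1 fell (91 to 269 and 42 to 294), and the 4 eosinophil markers summed to 296 to 433 and 294 to 349, with Epx and Il5ra at the absent level. A sum follows the brightest genes of its list and is no measure of the share of a cell type. The part of these cell types in the results below was not tested.

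Transcripts of the autophagy machinery were mostly higher in Gr1hi cells. Of 37 tested genes 21 rose (56.8%, against 24.6% of all tested genes) and 5 fell (13.5%, against 31.8% of all), so that 26 passed the test (70.3%, against 56.4%). Rises of at least 2-fold were found in 12, where 10.6% of all tested genes had one, and a fall of that size in 1, Atg10. The largest rises were in Ulk1, Atg2a, Atg4c, Vmp1, Atg7, Sqstm1 and Map1lc3b. The median difference over the 37 genes was 0.48, against 0.03 over all tested genes, and 30 of the 37 had no overlap between the arrays of Gr1lo and Gr1hi (81.1%, against 65.5% of all). The SD between replicates had a median over the members of 0.18 in Gr1lo and 0.16 in Gr1hi.

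The size of these counts rests on the scaling. When each array was centred on its median over tested genes, 32 of 37 rose and 1 fell, where 65.6% of all tested genes rose and 18.2% fell. Centring on the hybridization controls gave 16 higher and 5 lower, where 14.6% of all tested genes rose and 38.1% fell. The array medians of tested genes differed by -0.68 between Gr1hi and Gr1lo, and median centring takes this from every difference. Under it the median difference was 1.16 for the autophagy genes and 0.70 for all tested genes. Under control centring these were 0.22 and -0.23. The same 16 genes rose on the deposited scale, under both centrings and after repeated quantile normalization: Ulk1, Ulk2, Rb1cc1, Wipi2, Atg2a, Atg9a, Vmp1, Atg3, Atg7, Atg4b, Atg4c, Map1lc3b, Gabarap, Gabarapl2, Sqstm1 and Nbr1. Atg10 fell under each of them. The share of all tested genes called alike under each of these scalings is not given here. Without the third array of each group 17 rose and 3 fell, where 21.5% of all tested genes rose and 29.3% fell.

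**Figure D1:**
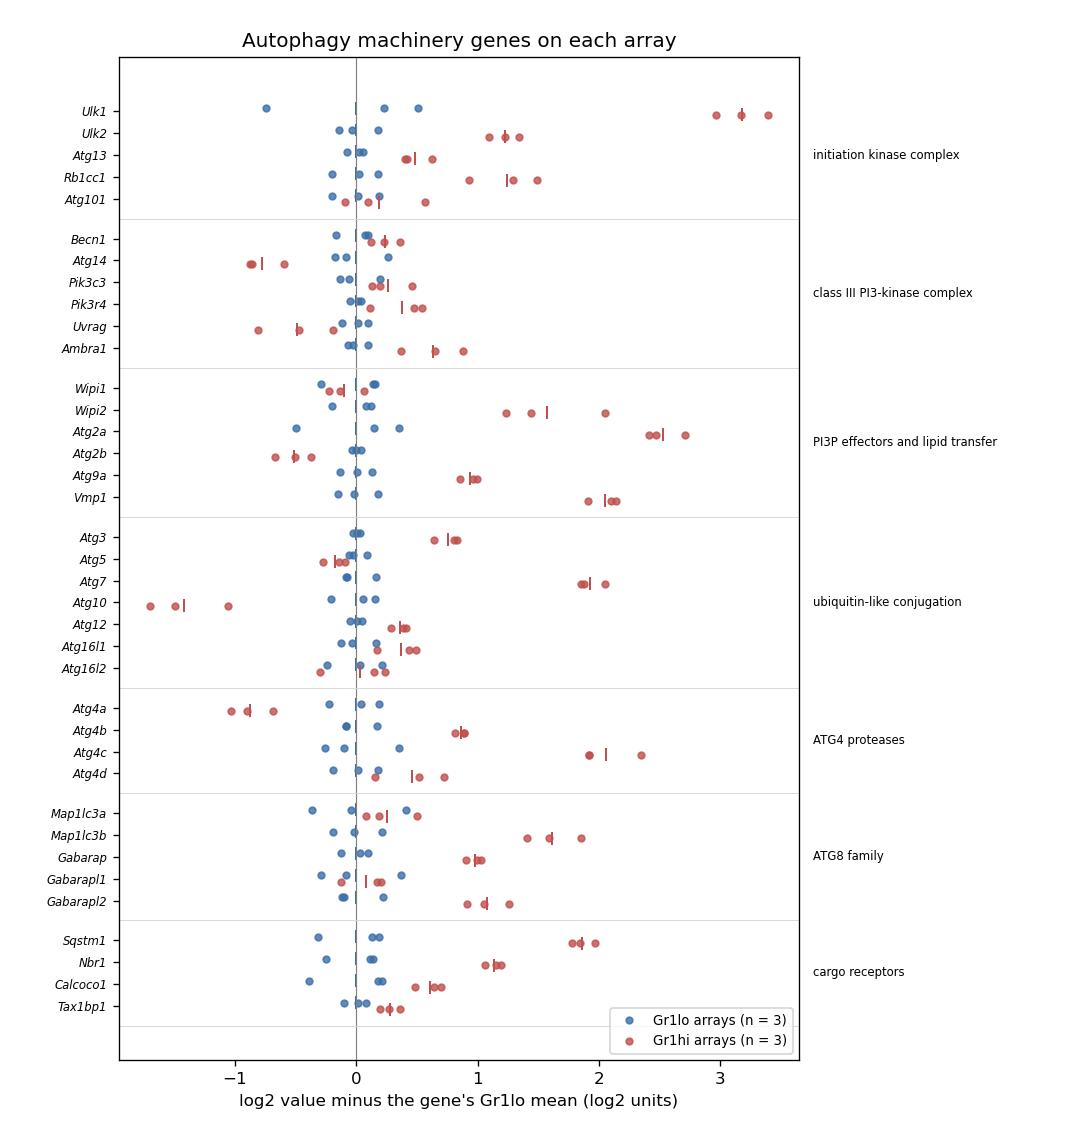
Values of the 37 tested autophagy machinery genes on each array, as the log2 value minus the gene's own Gr1lo mean (x axis, log2 units), with genes grouped by role. Points are arrays (3 Gr1lo, 3 Gr1hi) and short vertical lines are group means. Ulk1 lies farthest right and Atg10 farthest left, while the points of Atg101, Pik3c3, Wipi1, Atg16l2, Atg4d, Map1lc3a and Gabarapl1 overlap between the groups.

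The kinase complex that starts autophagy was higher in Gr1hi in 4 of its 5 genes (80.0%, against 24.6% of all tested genes). Ulk1, one of a pair of related serine/threonine kinases at its centre, read 5.88, 4.91 and 6.16 in Gr1lo and 9.04, 8.82 and 8.62 in Gr1hi. The lowest Gr1hi array lay well above the highest Gr1lo array, and the second Gr1lo array was the lowest of all 6. The rise of Ulk1 was 3.18 (SE 0.30, adjusted p = 1.64e-05 by limma), which is 9.07-fold and the largest among the 37 genes. Its other probe set was also called higher, by 0.63 (adjusted p = 0.00301 among all probe sets), and the mean of both probe sets differed by 1.90.

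Ulk2, the related kinase, read 8.13, 7.92 and 7.80 in Gr1lo and 9.29, 9.18 and 9.04 in Gr1hi, a rise of 1.22 (SE 0.14, adjusted p = 5.89e-05). Rb1cc1, which encodes the scaffold FIP200, read 9.06, 8.68 and 8.91 and then 10.38, 9.81 and 10.18, a rise of 1.24 (SE 0.17, adjusted p = 1.49e-04). In both genes all Gr1hi arrays were above all Gr1lo arrays. Atg13, an adaptor of the complex, was dim in both groups (3.43 ± 0.07 and 3.91 ± 0.12, SD, n = 3 per group) and rose by 0.48 (adjusted p = 0.0125). That call was lost under control centring (0.379; 4.57e-05 to 1 over all alternatives) and without the third array of each group (0.0635), and a second probe set of Atg13 differed by -0.05. Atg101, the partner that stabilizes ATG13, overlapped between the groups at 7.28 ± 0.20 and 7.47 ± 0.34 and did not pass the test (difference 0.19, 95% interval -0.28 to 0.66).

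The class III phosphatidylinositol 3-kinase complex was mixed. Of its 6 genes 1 rose (16.7%), 2 fell (33.3%) and 3 did not pass the test, with a median difference of 0.25. The shares of all tested genes were 24.6% and 31.8%. Median centring gave 4 higher (66.7%, near the 65.6% of all tested genes) and none lower (18.2% of all). Control centring gave 2 lower (33.3%, against 38.1% of all) and none higher (14.6% of all). Pik3c3, the lipid kinase itself (VPS34), read 7.35, 7.10 and 7.02 in Gr1lo and 7.35, 7.28 and 7.62 in Gr1hi. Its groups overlapped, and its difference was 0.26 (95% interval -0.13 to 0.65, adjusted p = 0.224). The regulatory subunit gene Pik3r4 stood at 6.41 ± 0.05 and 6.79 ± 0.23 (adjusted p = 0.105), and passed the test without Gr1hi replicate 2 (0.045; 2.72e-04 to 1 over all alternatives). It also passed where probe sets were averaged (0.0431), with no mean-variance trend (0.047), under median centring (2.72e-04) and after repeated quantile normalization (0.0172).

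Becn1, the subunit Beclin 1 that binds regulators of the complex, read 11.06, 11.08 and 10.82 in Gr1lo and 11.21, 11.11 and 11.34 in Gr1hi. The groups did not overlap, but the difference of 0.24 (SE 0.10) did not pass (adjusted p = 0.0813). Another probe set of Becn1 did, with a difference of 0.74 (SE 0.11, adjusted p = 3.05e-04 among all probe sets). The mean of its probe sets also passed (0.0268), as did the chosen probe set under median centring (1.88e-05). On the deposited scale, both subunits that give the complex its 2 forms fell. Atg14, which directs it to the forming autophagosome, read 3.92, 4.02 and 4.36 and then 3.23, 3.51 and 3.25. The difference of Atg14 was -0.77 (SE 0.17, adjusted p = 0.00287). Its Gr1hi values were dim, not far above the 2.77 reached by controls of absent transcripts. Against a 1.5-fold change its call was lost (adjusted p = 0.376). Uvrag, which directs it to endosomes and late steps, fell from 9.14 ± 0.11 to 8.64 ± 0.31 (difference -0.49, adjusted p = 0.0308).

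Uvrag no longer passed (0.0021 to 1 over all alternatives) when Gr1lo replicate 1 (adjusted p = 0.0802), Gr1lo replicate 3 (0.0878), Gr1hi replicate 2 (0.0979) or Gr1hi replicate 3 (0.0676) was left out. Under median centring Uvrag differed by 0.18 and Atg14 by -0.10, and neither passed. Ambra1, a scaffold that links Beclin 1 to regulation, rose from 5.44 ± 0.09 to 6.07 ± 0.26 (difference 0.63, adjusted p = 0.0209). It no longer passed (1.55e-04 to 0.947 over all alternatives) when Gr1lo replicate 3 (0.0572), Gr1hi replicate 2 (0.0524) or Gr1hi replicate 3 (0.0743) was left out, nor under control centring (0.231).

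Genes of the proteins that read PI3P and supply lipid to the growing membrane changed in 5 of 6 (83.3%, against 56.4% of all tested genes). Atg2a, which encodes a lipid transfer protein, read 4.43, 3.78 and 4.63 in Gr1lo and 6.99, 6.75 and 6.69 in Gr1hi. It rose by 2.53 (SE 0.25, adjusted p = 1.98e-05), a 5.78-fold difference. Its relative Atg2b went the other way, from 4.35, 4.31 and 4.38 to 3.84, 3.97 and 3.67, with no overlap in either gene. The difference of Atg2b was -0.52 (SE 0.15, adjusted p = 0.0164). That fall did not pass (0.0055 to 1 over all alternatives) when Gr1lo replicate 1 (0.0513) or Gr1hi replicate 3 (0.0593) was left out, with the mean of its probe sets (0.643) or after repeated quantile normalization (0.0854). Median centring turned it to 0.16 (0.407).

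Vmp1, a membrane protein of the endoplasmic reticulum that moves lipids between membrane leaflets, read 9.88, 9.55 and 9.68 in Gr1lo and 11.80, 11.62 and 11.85 in Gr1hi. Its rise of 2.05 (SE 0.11, adjusted p = 6.88e-07) had the smallest adjusted p among the 37 genes. A second probe set of Vmp1 went the other way, from 5.05 to 4.24 (difference -0.80, adjusted p = 0.0184 among all probe sets), and was the only one of the tested extra probe sets called against its gene. The mean of both differed by 0.62. Which transcripts of Vmp1 each probe set reads is not given in the sources used here.

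Wipi2, a PI3P reader that recruits the conjugation machinery, read 5.87, 5.60 and 5.92 and then 7.85, 7.03 and 7.24, a rise of 1.58 (SE 0.24, adjusted p = 3.11e-04), or 0.94 with the mean of its probe sets. Wipi1, its relative, overlapped between the groups (9.66 ± 0.25 and 9.56 ± 0.15, difference -0.10, adjusted p = 0.593). Atg9a, which encodes the scramblase of ATG9 vesicles, rose from 6.83 ± 0.13 to 7.76 ± 0.07 (difference 0.94, adjusted p = 5.71e-04).

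The conjugation genes were split. Of 7 genes, 3 rose (42.9%, against 24.6% of all tested genes), 1 fell (14.3%, against 31.8%) and 3 did not pass the test. Median centring gave 6 higher and 1 lower (85.7% and 14.3%, against 65.6% and 18.2% of all tested genes). Control centring gave 2 and 1 (28.6% and 14.3%, against 14.6% and 38.1%). Atg7, the E1-like enzyme that activates both ATG12 and the ATG8 proteins, read 6.99, 6.98 and 7.23 in Gr1lo and 9.11, 8.95 and 8.92 in Gr1hi. It rose by 1.93 (SE 0.14, adjusted p = 3.89e-06), a 3.80-fold difference, or by 1.204 with the mean of its probe sets. Atg3, the E2-like enzyme for ATG8 proteins, read 11.98, 12.01 and 12.03 and then 12.81, 12.84 and 12.64, a rise of 0.76 (SE 0.07, adjusted p = 2.04e-05). Neither gene overlapped between the groups.

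Atg10, the E2-like enzyme of the other reaction, which joins ATG12 to ATG5, read 4.41, 4.05 and 4.31 in Gr1lo and 3.20, 2.76 and 2.55 in Gr1hi. Its difference of -1.42 (SE 0.19, adjusted p = 1.36e-04) was the largest fall among the 37 genes. In Gr1hi 2 of its 3 arrays lay at or below 2.77, the highest value of the controls of absent transcripts. Atg12, the ubiquitin-like protein of that reaction, rose by 0.36 from 8.46 ± 0.05 to 8.82 ± 0.07 (adjusted p = 0.0278). Atg12 no longer passed (3.60e-05 to 1 over all alternatives) when Gr1lo replicate 1 (0.0735), Gr1lo replicate 3 (0.078), Gr1hi replicate 1 (0.0769) or Gr1hi replicate 3 (0.0791) was left out, with no filter on low values (0.0544) or under control centring (0.676).

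Atg5, its target, read 8.93, 9.07 and 8.95 in Gr1lo and 8.71, 8.89 and 8.84 in Gr1hi. These groups did not overlap, but the difference of -0.17 (SE 0.12) did not pass the test (adjusted p = 0.255). Median centring turned it to 0.50, which passed (adjusted p = 0.00474). Atg16l1, which completes the ATG12-ATG5 complex, stood at 7.46 ± 0.15 and 7.82 ± 0.17 (difference 0.37, adjusted p = 0.0809), and its relative Atg16l2 at 8.62 ± 0.23 and 8.65 ± 0.29 (difference 0.03, adjusted p = 0.909). Atg16l1 passed under median centring (1.87e-04), after repeated quantile normalization (0.0285) and with no mean-variance trend (0.0496). A second probe set of Atg16l2 differed by -0.53 (adjusted p = 0.0434 among all probe sets).

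The promoters of members were searched for the E-box core CACGTG, to which MiT/TFE factors such as TFEB bind, and for its extended form TCACGTGA. Both words are their own reverse complement, so that a search of 1 strand covers both, and each extended match also holds the core. RefSeq windows (GRCm38.p6) of 300 bases around the start matched 32 of the 38 genes by symbol. The core was found in 4 of these 32 (12.5%), Atg3, Atg5, Atg7 and Atg14, against 8.09% of 27025 genes in the table, and the extended form in 1 (3.12%), Atg3, against 1.12%. These 4 genes did not move alike: Atg3 and Atg7 rose, Atg14 fell and Atg5 did not pass the test. The 150 bases before the start of the 3 genes whose matches lie before it are shown, with that of Ulk1, the largest rise, which had no match. Capitals mark the matches.
Atg3, chr16:45158679-45158828, plus strand: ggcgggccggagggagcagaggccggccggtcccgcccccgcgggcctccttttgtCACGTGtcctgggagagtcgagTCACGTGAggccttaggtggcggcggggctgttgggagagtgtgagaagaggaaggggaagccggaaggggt
Atg7, chr6:114670946-114671095, plus strand: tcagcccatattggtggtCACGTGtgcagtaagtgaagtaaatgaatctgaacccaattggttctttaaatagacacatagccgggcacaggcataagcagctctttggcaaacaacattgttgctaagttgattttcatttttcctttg
Atg5, chr10:44268189-44268338, plus strand: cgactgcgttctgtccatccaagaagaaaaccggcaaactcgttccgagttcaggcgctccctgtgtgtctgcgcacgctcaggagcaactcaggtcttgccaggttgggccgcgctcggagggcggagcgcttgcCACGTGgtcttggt
Ulk1, chr5:110810082-110810231, minus strand: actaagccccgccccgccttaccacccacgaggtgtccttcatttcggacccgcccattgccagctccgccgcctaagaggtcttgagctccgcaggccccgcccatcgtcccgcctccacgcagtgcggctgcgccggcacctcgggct
A match is a word in a window, and no binding was measured.

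The ATG4 proteases trim new ATG8 proteins and release them from membranes. Atg4c read 5.54, 5.09 and 4.93 in Gr1lo and 7.10, 7.10 and 7.53 in Gr1hi, and rose by 2.06 (SE 0.22, adjusted p = 3.88e-05), a 4.18-fold difference. Its other probe set was called the same way. Atg4b, the family's main protease for LC3, rose from 6.39 ± 0.15 to 7.25 ± 0.04 (difference 0.86, adjusted p = 0.00142). Atg4a went down, from 7.36, 7.77 and 7.63 to 6.55, 6.68 and 6.90 (difference -0.88, SE 0.18, adjusted p = 0.00227), with no overlap. Under median centring Atg4a differed by -0.20 and did not pass. Atg4d stood at 5.99 ± 0.19 and 6.46 ± 0.29 (difference 0.46, adjusted p = 0.0889), and passed when Gr1hi replicate 2 was left out (0.0395; 4.78e-04 to 1 over all alternatives). It also passed under median centring (4.78e-04) and after repeated quantile normalization (0.0173).

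Of the 5 ATG8 family genes 3 rose, where 24.6% of all tested genes did, and 2 did not pass the test. All 5 rose under median centring, but 65.6% of all tested genes then rose as well. Under control centring 3 rose, where 14.6% of all tested genes did. Map1lc3b, which encodes LC3B, the usual marker of autophagosomes, read 11.26, 10.86 and 11.04 in Gr1lo and 12.91, 12.47 and 12.64 in Gr1hi. All 3 Gr1hi arrays were above all Gr1lo arrays, and the rise was 1.62 (SE 0.13, adjusted p = 6.67e-06), a 3.07-fold difference. Its 3 other probe sets were called the same way. Gabarap, the founder of the other branch of the family, read 11.68, 11.53 and 11.75 and then 12.56, 12.68 and 12.65, a rise of 0.98 (SE 0.08, adjusted p = 7.02e-06).

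Gabarapl2, a relative of GABARAP, rose from 10.26 ± 0.19 to 11.33 ± 0.18 (difference 1.07, adjusted p = 7.17e-05), while another probe set of it differed by 0.21 (adjusted p = 0.383 among all probe sets). Map1lc3a, which encodes LC3A, overlapped between the groups, at 9.78, 9.45 and 10.23 in Gr1lo and 10.00, 10.32 and 9.90 in Gr1hi. Its difference of 0.25 did not pass (95% interval -0.19 to 0.69, adjusted p = 0.295), but did without Gr1lo replicate 3 (0.0449; 0.00248 to 1 over all alternatives) and without the third array of each group (0.0412). Gabarapl1 was dim in both groups (3.33 ± 0.34 and 3.41 ± 0.18) and did not pass the test (difference 0.08, adjusted p = 0.73).

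All 4 measured cargo receptor genes rose, where 24.6% of all tested genes did. Sqstm1, which encodes p62, the receptor of ubiquitin-tagged cargo, read 6.61, 7.05 and 7.10 in Gr1lo and 8.76, 8.89 and 8.70 in Gr1hi. It rose by 1.86 (SE 0.17, adjusted p = 1.37e-05), a 3.64-fold difference. The mean of its probe sets differed by 1.18, and the other probe set alone by 0.49. Nbr1, a receptor of related structure, read 9.35, 8.99 and 9.37 and then 10.43, 10.39 and 10.30, a rise of 1.13 (SE 0.13, adjusted p = 5.13e-05). The groups overlapped in neither gene.

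The other 2 receptors rose by less than 2-fold on the probe sets used. Tax1bp1, a receptor that also limits NF-kB signalling, rose by 0.28 from 10.68 ± 0.09 to 10.96 ± 0.08 (adjusted p = 0.0298). Of its 3 other probe sets 1 was called higher, by 1.06 (adjusted p = 5.53e-04 among all probe sets), and 2 were not called. Tax1bp1 no longer passed (2.04e-05 to 1 over all alternatives) when Gr1lo replicate 2 (0.0718), Gr1lo replicate 3 (0.0596), Gr1hi replicate 1 (0.0689) or Gr1hi replicate 3 (0.0992) was left out. The same held with no mean-variance trend (0.0586), after repeated quantile normalization (0.0745) and under control centring (0.933). Calcoco1, a receptor for parts of the endoplasmic reticulum and Golgi, rose by 0.61 (adjusted p = 0.0105), from 2.67 ± 0.34, within the level of absent transcripts, to 3.27 ± 0.11. Its second probe set was called higher by 0.53 (adjusted p = 3.98e-04 among all probe sets). The call on the first was lost under control centring (0.105; 4.27e-05 to 1 over all alternatives) and without the third array of each group (0.0578).

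**Figure D2:**
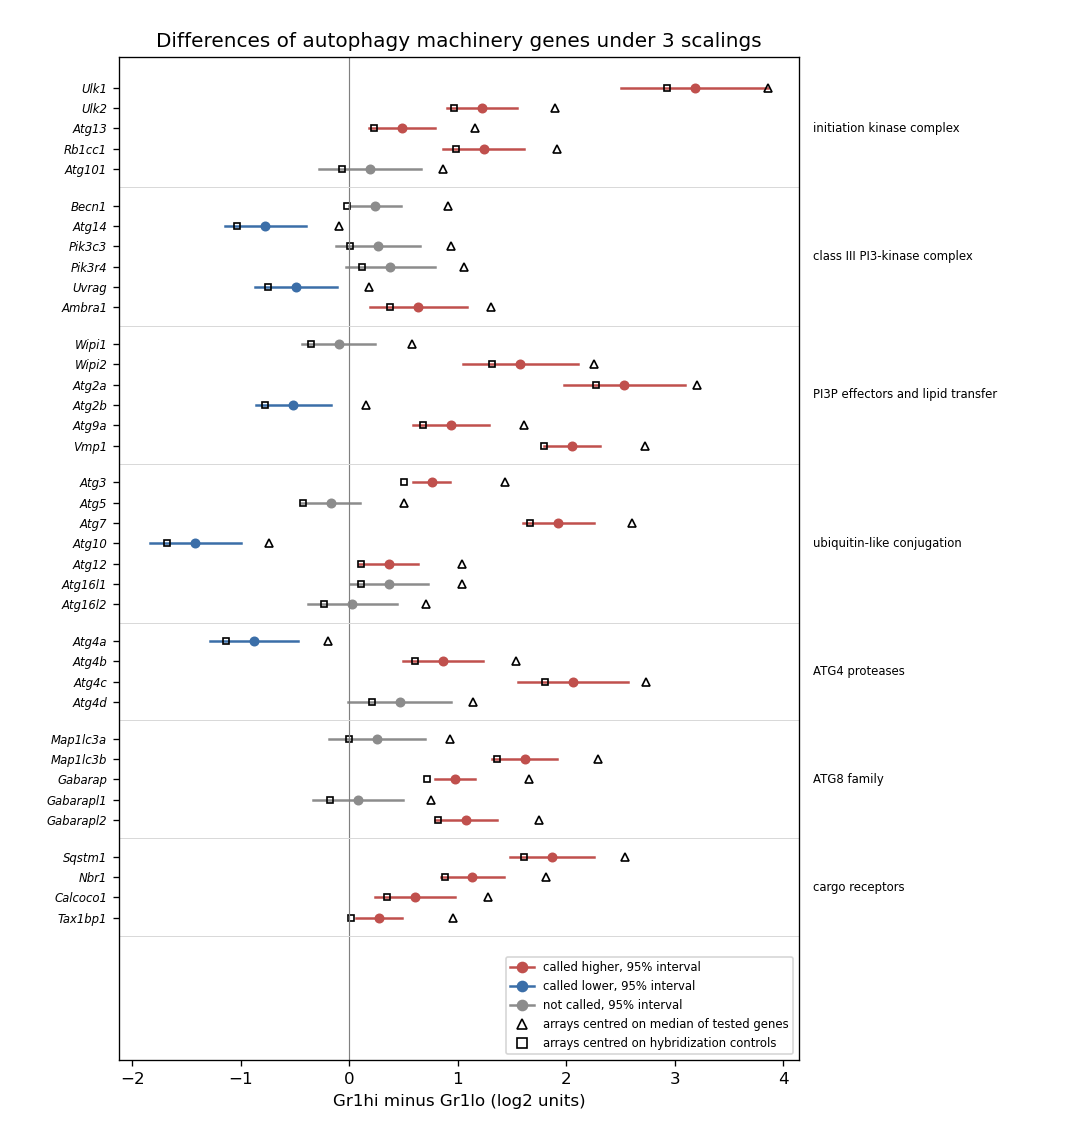
Difference between Gr1hi and Gr1lo for each of the 37 genes (x axis, log2 units), with its 95% interval from limma on the deposited scale (filled points, coloured by call) and its value with arrays centred on the median of tested genes (triangles) or on the hybridization controls (squares). Ulk1, Atg2a, Vmp1, Atg4c and Atg7 stay right of 0 and Atg10 left of 0 under all 3, whereas the triangles of Uvrag and Atg2b lie right of 0 and their other symbols left of it.

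Of the 51 further probe sets of the members 44 were bright enough to test, in 26 genes. In genes whose main probe set was called, 31 such probe sets were tested: 21 were called the same way, 1 the opposite way (that of Vmp1) and 9 were not called. In genes not called, 2 were called, those of Becn1 and Atg16l2 given above.

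Some related members differed in the size or direction of their change. Their ratio within an array is not altered by centring. The level of such a ratio also depends on the probes, so only its change is given. The 7 pairs were chosen after their values were seen and are described without a test. Each names first the gene with the larger difference, so that a higher ratio in Gr1hi follows from that order. The ratio of Atg2a to Atg2b was higher in Gr1hi by 3.05 on the log2 scale (SE 0.26), or 8.27-fold, and that of Atg4c to Atg4a by 2.94 (SE 0.30), or 7.66-fold. Ulk1 gained on Ulk2 by 1.96 (SE 0.40), Wipi2 on Wipi1 by 1.68 (SE 0.18) and Map1lc3b on Map1lc3a by 1.36 (SE 0.31). For each of these 5 pairs all Gr1hi arrays lay above all Gr1lo arrays.

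The ratio of Gabarapl2 to Gabarapl1 also did not overlap (change 0.99, SE 0.32), though Gabarapl1 was dim. That of Atg16l1 to Atg16l2 did overlap (change 0.34, SE 0.32). With the mean of each gene's probe sets in place of the chosen one, the changes were 2.58 for Atg2a, 2.62 for Atg4c, 1.31 for Map1lc3b, 0.84 for Wipi2, 0.66 for Ulk1 and 0.49 for Gabarapl2, each over the partner given above.

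**Figure D3:**
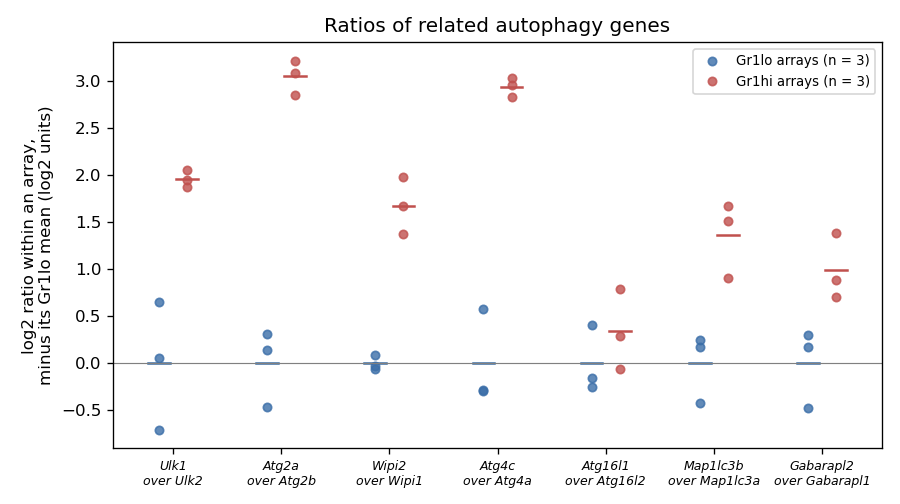
Log2 ratio of 2 related autophagy genes within each array, minus the mean of that ratio in Gr1lo (y axis, log2 units), for 7 pairs (x axis). Points are arrays (3 Gr1lo, 3 Gr1hi) and horizontal lines are group means. The Gr1hi points lie above the Gr1lo points in 6 of the 7 pairs, and the pair of Atg16l1 and Atg16l2 overlaps. The gene named first in each pair is the one with the larger difference.

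Genes around the core machinery were read from 5 further lists. Among regulators in the mTORC1 and AMPK pathways, which hold back and promote autophagy, 10 of 27 tested genes rose and 8 fell (37.0% and 29.6%, against 24.6% and 31.8% of all tested genes), with a median difference of -0.14. Sesn2, a stress-induced inhibitor of mTORC1, rose from 3.83 ± 0.17 to 6.45 ± 0.16 (difference 2.62, adjusted p = 3.14e-06), and Prkab1, a subunit of AMPK, by 1.80. Tbc1d7, a subunit of the TSC complex, had a difference of -1.31 (-0.59 with the mean of its probe sets) and Lamtor2, a subunit of the lysosomal Ragulator, of -1.26. Mtor, the kinase itself, stood at 8.14 ± 0.04 and 7.80 ± 0.03 and did not pass the test (difference -0.34, adjusted p = 0.051). Its side of the threshold rests on the settings, with -0.60 (0.0145) under control centring and 0.34 (0.0408) under median centring (0.0145 to 1 over all alternatives).

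Of 9 transcription factors of the MiT/TFE and FOXO families 5 rose and 2 fell (55.6% and 22.2%, against the 24.6% and 31.8% of all tested genes). Tfeb, a master regulator of lysosome and autophagy genes, read 4.70 ± 0.18 in Gr1lo and 6.56 ± 0.13 in Gr1hi (difference 1.86, SE 0.19, adjusted p = 2.44e-05). Its relative Mitf rose by 2.27 (1.37 with the mean of its probe sets) and the FOXO factor gene Foxo3 by 1.99. Tfec, another MiT/TFE member, fell from 9.46 ± 0.59 to 3.74 ± 0.58, a difference of -5.72 (SE 0.35, adjusted p = 1.28e-06). These 4 calls held under each scaling tried.

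For fusion of autophagosomes with lysosomes, 8 of 18 genes rose and 2 fell (44.4% and 11.1%, against 24.6% and 31.8% of all tested genes). Together 55.6% of that list was called, near the 56.4% of all tested genes. The lysosome-tethering factor gene Tecpr1 rose from 4.39 ± 0.25 to 6.90 ± 0.58 (difference 2.51, adjusted p = 6.46e-05), or by 1.18 with the mean of its probe sets, the SNARE gene Stx7 by 0.92 and the GTPase gene Rab7 by 0.71. Vps16, a core subunit of the HOPS tethering complex, had a difference of -1.13. The call of Rab7 was lost against a 1.5-fold change. Of 17 other autophagy factors and inhibitors 10 rose and 3 fell (58.8% and 17.6%, against 24.6% and 31.8% of all). C9orf72, part of a complex that acts on ULK1, rose by 3.52, Sh3glb1, which binds Beclin 1 through UVRAG, by 3.01 from 9.89 ± 0.59 to 12.90 ± 0.08, and Wdfy3, a scaffold for selective autophagy, by 1.80 (1.13 with the mean of its probe sets). Ulk3 rose by 0.70 (adjusted p = 0.00538), a call lost under control centring (0.114; 7.84e-05 to 0.64 over all alternatives). Ei24 had a difference of -1.41. The inhibitor gene Rubcn was dim, at 2.99 ± 0.09 and 2.80 ± 0.16 (adjusted p = 0.189), and its sign rests on the scaling. It passed as higher under median centring (0.49, adjusted p = 0.0021) and as lower under control centring (-0.44, adjusted p = 0.0231).

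Among organelle-selective receptors and mitophagy genes 7 of 16 rose (43.8%, against 24.6% of all) and 5 fell (31.2%, near the 31.8% of all). Bnip3, a mitochondrial receptor that binds LC3, rose from 6.56 ± 0.49 to 9.94 ± 0.11 (difference 3.38, SE 0.23, adjusted p = 2.16e-06). The endoplasmic reticulum receptor genes Retreg1 and Ccpg1 rose by 2.05 and 1.83, and Retreg1 by 2.66 with the mean of its probe sets. Nufip1, a receptor for ribosomes, went from 5.28 ± 0.38 to 3.10 ± 0.29 (difference -2.18). Tbk1, a kinase of cargo receptors, did not pass (difference -0.21, adjusted p = 0.118), though it did when Gr1hi replicate 3 was left out (0.0483; 0.00353 to 1 over all alternatives). Its sign turned under median centring, where it passed as higher (0.46, adjusted p = 0.00353). Under control centring it passed as lower (-0.47, adjusted p = 0.0171).

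Counts of the 5 lists rest on the scaling as well. Under control centring the regulators had 8 higher and 10 lower (29.6% and 37.0%) and the fusion list 6 and 3 (33.3% and 16.7%). The other factors had 8 and 5 (47.1% and 29.4%), and the organelle-selective list 4 and 6 (25.0% and 37.5%). Of all tested genes 14.6% then rose and 38.1% fell. The falling shares of the regulators and the organelle-selective list lay near the latter. Under median centring these 4 lists had 19 and 4, 15 and 1 (83.3% and 5.56%), 14 and 1 (82.4% and 5.88%), and 12 and 2 (75.0% and 12.5%). Of all tested genes 65.6% then rose and 18.2% fell. The regulators' 70.4% and 14.8% lay near those shares. The transcription factors had 4 higher and 2 lower (44.4% and 22.2%) under control centring and 7 and 2 (77.8% and 22.2%) under median centring.

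**Figure D4:**
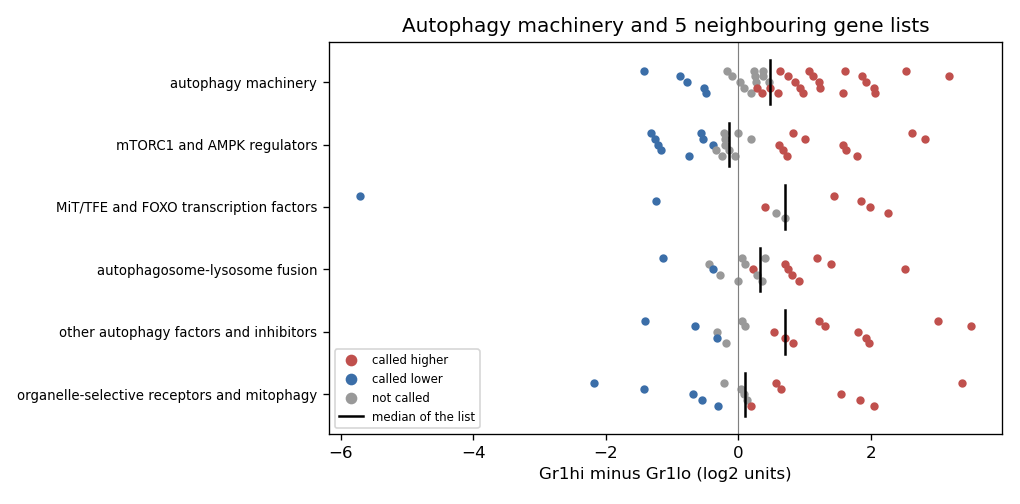
Difference between Gr1hi and Gr1lo (x axis, log2 units) for each tested gene of the autophagy machinery (37 genes) and of 5 neighbouring lists (rows), coloured by call, with the median of each list as a vertical line. The median of the autophagy machinery is 0.48 and that of the mTORC1 and AMPK regulators -0.14, and Tfec is the point near -5.72.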

How the data were processed

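The authors deposited log2 probe set values of 6 Affymetrix 3' arrays, and per the submitters' processing notes the tool was GCRMA. No version or setting of it is given in the sources used here. As a method, GCRMA corrects background by probe sequence and scales arrays to each other. The values carry no detection calls, and a low value can be told from an absent transcript only by its distance from 3 control probe sets of absent transcripts (2.21 to 2.77). The number of arrays limits the precision.

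Probe sets were named through the platform annotation: 34945 of 45101 name 1 gene, 932 several and 9160 none listed there, beside 64 controls. To be tested, a gene had to exceed the 40th percentile of an array's non-control probe sets on 3 or more of the 6 arrays. The groups were compared with limma 3.58.1 (R 4.3.3), using lmFit and eBayes with the trend option and a two-sided test. P-values were adjusted by Benjamini-Hochberg over 12739 genes. The fit was tested on simulated data. Figures were made with matplotlib 3.10.9. Signals of a marker list were summed as 2 to the power of the log2 value.

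The members and lists were chosen with earlier results of these data known. All members are named, and of each further list up to 4 called genes with the smallest p, plus Tfeb, Mtor, Ulk3, Tbk1 and Rubcn. Alternatives were other filters, probe set rules, scalings, thresholds and variance models, the replicate number as a block, and arrays left out. A change of pseudocount did not apply to log2 values.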

Additional observations from a re-analysis of the deposited data

How the results depend on the processing

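Of 665 values of single members under the 18 alternatives, 573 kept their direction and their side of the threshold. The rest were 55 calls lost, 20 gained and 17 with the sign turned, all 17 in Atg101, Becn1, Uvrag, Wipi1, Atg2b, Atg5, Atg16l2, Map1lc3a and Gabarapl1. In part of the alternatives the difference itself could not change, only the side of the threshold. These were the other filters, the variance model, the replicate block, the stricter threshold and the 1.5-fold test. The same held where each probe set was tested, since only the chosen probe set of a gene was counted. The same 14 members were called in the same direction in every alternative: Ulk1, Ulk2, Rb1cc1, Wipi2, Atg2a, Vmp1, Atg7, Atg10, Atg4c, Map1lc3b, Gabarap, Gabarapl2, Sqstm1 and Nbr1. For this count too, the share of all tested genes is not given here. With arrays centred on the median of tested genes 32 members were higher and 1 lower, with a median difference of 1.16. Of all tested genes 65.6% were then higher and 18.2% lower. Signs turned there for Uvrag (0.18), Wipi1 (0.58), Atg2b (0.16), Atg5 (0.50), Mtor (0.34), Tbk1 (0.46) and Rubcn (0.49). All of these but Uvrag and Atg2b passed the test in the turned direction. Centring on the hybridization controls made the members' median difference 0.22 and turned the sign of Atg101 (-0.0672), Becn1 (-0.0219), Atg16l2 (-0.23), Map1lc3a (-0.0040) and Gabarapl1 (-0.18). When probe sets were averaged, Wipi1 differed by 0.10 and Atg16l2 by -0.25, and without the third array of each group Wipi1 by 0.0398 and Gabarapl1 by -0.0034. Leaving out each array in turn gave -0.0929 to 0.19 for Atg16l2 and -0.0654 to 0.27 for Gabarapl1. Higher calls were 43.6% of all calls in the deposited values, 78.3% under median centring and 27.7% under control centring.

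A test against a 1.5-fold change called 13 members higher and 1 lower, where 10.6% of all tested genes were higher and 19.0% lower. It called 3774 genes in all, where the main test called 7179. A threshold of 0.01 left 3 lower, where 27.2% of all tested genes fell, as did leaving out the third array of each group (29.3% of all). Testing each probe set called 12755 of 22715. Leaving out each array in turn left 3 to 5 members lower, and 29.8% to 30.8% of all tested genes. With the replicate number as a block 21 members were higher and 5 lower, and 7059 genes were called (23.8% of all tested genes higher and 31.6% lower). Deviations of same-numbered arrays correlated at 0.166, 0.00429 and 0.145, and Gr1hi replicate 2 correlated best with another number (0.0348). Xist was high on the third array of both groups, but the labels do not say whether these arrays share a source. The numbers were not taken to pair the samples, and the block fit is given above. Arrays carry no counts, and for Atg10, Atg14, Calcoco1 and Gabarapl1 the distance of the signal from background limits what can be said. Leaving out an array for the ratios of related genes was chosen after seeing the data, and the ratio of Atg2a to Atg2b then changed by 2.82 to 3.21 and that of Ulk1 to Ulk2 by 1.60 to 2.29.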
